A study of Mus musculus with 6 samples.

Results

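The HOX genes encode homeodomain transcription factors and lie in 4 clusters, HoxA to HoxD. Within a cluster the genes are numbered by paralog group, from the low numbers at the 3′ end, which are active towards the head, to the high numbers at the 5′ end, which are active towards the tail. Vascular cells keep much of this positional code in the adult, so that the HOX genes read in a piece of aorta mark the level of the body from which its cells descend. The proteins bind DNA together with cofactors of the Pbx, Meis and Pknox families, the clusters are opened by retinoic acid and Trithorax proteins, and they are kept silent by Polycomb proteins.

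The HOX genes were taken as every row of the count table whose symbol is Hox followed by a letter from a to d and a number, which gave 39 of 55341 genes. Libraries had been made from the aortic arch and thoracic aorta of 3 miRNA-26b-/- mice (M2626, M2627 and M2628) and 3 miRNA-26b+/+ mice (M2629, M2630 and M2631), with 1 library per mouse. All mice were 8 weeks old, were fed chow and are labelled with the C57BL/6NCrl strain. The knockout had been made in R1/E (129/Sv) embryonic stem cells injected into C57BL/6NCrl embryos, by flanking miRNA-26b in intron 4 of *Ctdsp1* with loxP sites and deleting it with tamoxifen and CreERT2, so that the mutant allele came from 129/Sv DNA and was bred to C57BL/6. The CreERT2 transgene was then bred out, so that the deletion is not limited to the vessel.

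The libraries held 25706728 to 33345037 counts, and 17744 to 19287 genes had a count. *Mir26b*, the deleted gene, had 0 counts in every library but the miRNA-26b+/+ library M2630, which had 20, so that these counts gave no check of the genotype. Its host *Ctdsp1* had 184 to 201 CPM (counts scaled to the same library total) in miRNA-26b-/- mice and 151 to 176 in miRNA-26b+/+ mice, with an unadjusted p = 0.199 by edgeR's quasi-likelihood test. The labels name endothelial cells, whereas 7 smooth muscle markers summed to 31672 to 41407 CPM and 8 endothelial markers to 518 to 1793 CPM. The endothelial sum was 518 and 528 CPM in M2626 and M2627, 1793 in M2628, and 1257, 1656 and 1468 in the miRNA-26b+/+ libraries. In bulk tissue, fewer cells of a type and less RNA per cell cannot be told apart.

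In the GRCm38 annotation the HoxA cluster, with 11 of the 39 genes, spans chr6:52155590-52260880 (105.3 kb), and HoxB, with 10, spans chr11:96194316-96368256 (173.9 kb). HoxC, with 9, spans chr15:102921103-103036852 (115.8 kb), and HoxD, with 9, spans chr2:74668310-74765142 (96.8 kb). The clusters also carry microRNAs of their own, of which miR-10 and miR-196 are known to act on HOX transcripts. The sequences below are shown because the seed, bases 2 to 8 in capitals, decides which HOX transcripts miRNA-26b or the microRNAs of the clusters could pair with (mature sequences from RefSeq, GRCm38.p6).
mmu-miR-26b-5p: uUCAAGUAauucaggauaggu
mmu-miR-10a-5p: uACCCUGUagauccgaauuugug
mmu-miR-10b-5p: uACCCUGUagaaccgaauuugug
mmu-miR-196a-5p: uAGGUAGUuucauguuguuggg
mmu-miR-196b-5p: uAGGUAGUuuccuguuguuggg
These 5 fall into 3 seeds: that of miRNA-26b, one shared by miR-10a and miR-10b, and one shared by miR-196a and miR-196b.

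A match to bases 2 to 8 of miRNA-26b-5p (TACTTGA, on the transcript strand) was found in the longest annotated 3′ UTR of 5 of 39 HOX genes, 12.8%, against 9.67% of 21007 genes. The median 3′ UTR length was 966 bases over the HOX genes and 961 over all genes. In *Hoxa5*, *Hoxa9* and *Hoxd8* the match was followed by an A (8mer), and in *Hoxc4* and *Hoxd3* it was not (7mer). The sites are shown with their neighbouring bases, the match in capitals, since these are the HOX transcripts that carry such a match.
Hoxa5, chr6:52202303-52202310, minus strand: agctgtgtTACTTGAAgtaactaa
Hoxa9, chr6:52223795-52223802, minus strand: tgccaaaaTACTTGAAcactgtgt
Hoxd8, chr2:74707593-74707600, plus strand: agaattaaTACTTGAAaactaatt
Hoxc4, chr15:103036758-103036764, plus strand: actgaattTACTTGAttattgta
Hoxd3, chr2:74748059-74748065, plus strand: tggagaaaTACTTGAttacattt
For the microRNAs of the clusters, the miR-196 match (ACTACCT) was present in 9 HOX genes, 23.1%, against 6.10% of all genes, with 4 matches in *Hoxa7* alone. The miR-10 match (ACAGGGT) was present in 4 HOX genes, *Hoxa3* and *Hoxb3* among them, which is 10.3% against 12.5% of all genes. A match is a description of the sequence, and binding was not measured.

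The aorta carried RNA of the anterior and central HOX genes and none that was detected from the ends of the clusters. Of the 39 genes, 29 had a count in some library and 21 had one in all 6 libraries. No count in any library was found for *Hoxa13*, *Hoxb13*, *Hoxc13*, *Hoxd13*, *Hoxc12*, *Hoxd12*, *Hoxc11* and *Hoxd11*, the genes of the trunk's hind end, genitals and distal limb, nor for *Hoxb1* and *Hoxd1*, the hindbrain genes at the opposite end. A count of 0 allows, at 3 counts, a level of up to 0.0900 to 0.117 CPM depending on the library, counting error only. *Hoxa11*, with 0, 0 and 84 counts in M2626, M2627 and M2628 and 65, 22 and 25 in M2629, M2630 and M2631, was the highest numbered HOX gene with reads.

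**Figure D1:**
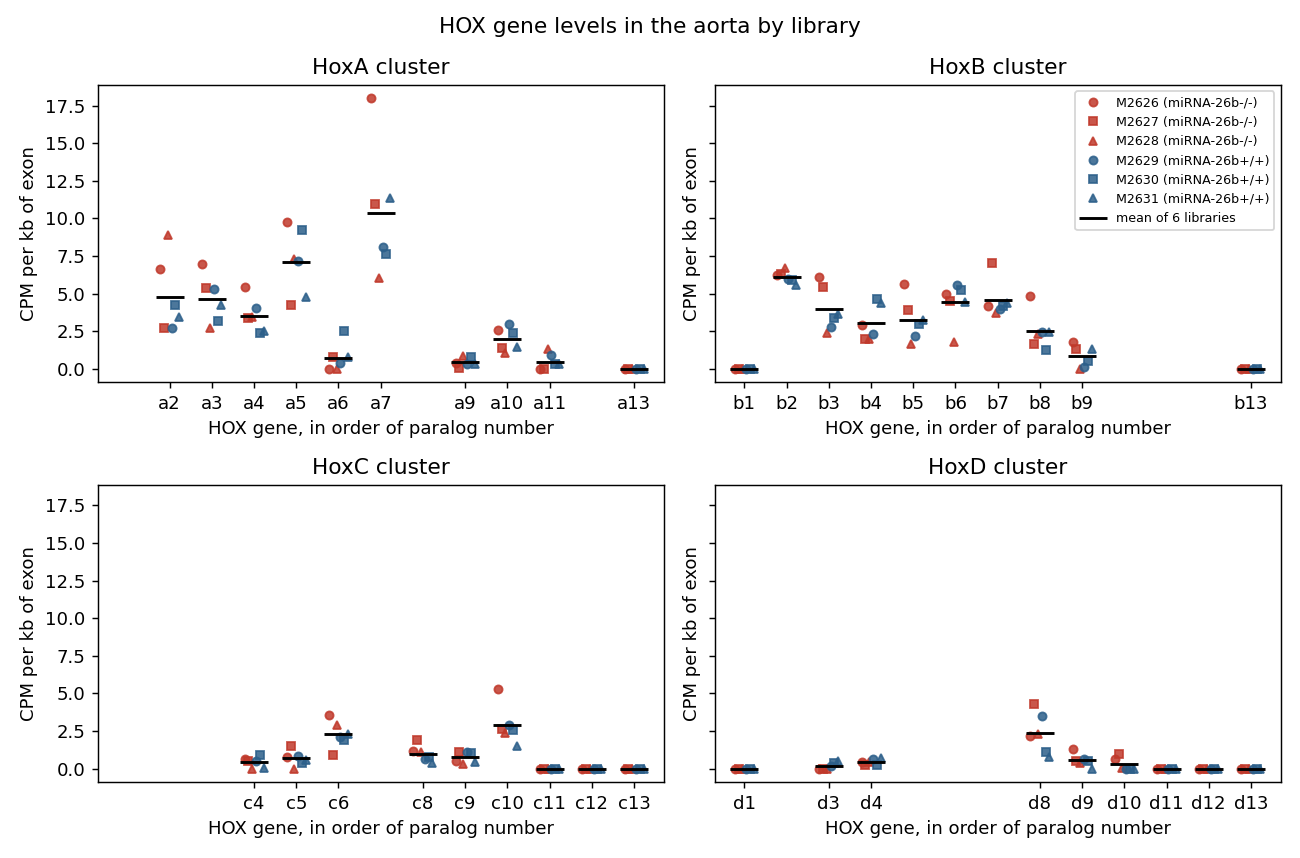
Level of 38 of the 39 HOX genes in CPM per kb of exon (vertical axis, linear) against its paralog number (horizontal axis), in 1 panel per cluster. Points are the 6 libraries (red miRNA-26b-/-, blue miRNA-26b+/+) and black dashes their mean. The levels were highest at *Hoxa7*, with a mean of 10.3, and no gene of groups 12 and 13 had a count.

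To compare levels between genes, CPM was divided by the exon length in kb. *Hoxa7*, a central gene that patterns the thoracic level, had the highest mean level at 10.3 CPM per kb, with 18.0, 11 and 6.02 in M2626, M2627 and M2628 and 8.11, 7.64 and 11.4 in M2629, M2630 and M2631. The miRNA-26b-/- libraries thus held both the highest and the lowest value, and the miRNA-26b+/+ libraries lay between them. *Hoxa5*, a gene of cervical and upper thoracic patterning, followed with 7.09 CPM per kb (9.78, 4.25 and 7.29 against 7.19, 9.24 and 4.81), and its range overlapped that of *Hoxa7*. *Hoxb2*, a hindbrain and pharyngeal arch gene, was next with 6.12 CPM per kb and had the narrowest range, 5.61 to 6.69. *Hoxa2*, the selector gene of the hyoid arch, had a mean of 4.79 CPM per kb, and *Hoxa3*, which the arch that forms the carotid arteries needs, had 4.63. The neighbouring genes in this order overlapped over the 6 libraries, so the order of single genes is not fixed by these data.

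In HoxB, *Hoxb3* to *Hoxb7* had mean levels of 3.04 to 4.59 CPM per kb, *Hoxb8* had 2.5 and *Hoxb9* 0.847. In HoxC, which holds no gene of groups 1 to 3, *Hoxc10* was highest with 2.89 CPM per kb, ahead of *Hoxc6* with 2.28, *Hoxc8* with 1.0 and *Hoxc9* with 0.765. *Hoxc10*, a gene of the lumbar level, and *Hoxa10*, with 1.98, were the most abundant genes of groups 9 to 13. HoxD was the lowest cluster and *Hoxd8* the only one of its genes above 1 CPM per kb, at 2.36, with *Hoxd9* at 0.562, *Hoxd4* at 0.461, *Hoxd10* at 0.282 and *Hoxd3* at 0.169.

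Summed over paralog groups, group 7 held 19.6% of the HOX level, group 5 held 14.5%, group 2 held 14.3% and group 3 held 11.5%. Groups 4 and 6 held 9.82% each, group 8 held 7.70%, group 10 held 6.76% and group 9 held 3.45%. Group 11 held 0.647%, so that the level did not fall evenly with paralog number: group 10 stood above group 9 in every library.

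The profile of a library was condensed into a paralog centre, the mean paralog number weighted by level. It was 5.55, 5.53 and 5.10 in M2626, M2627 and M2628 and 5.56, 5.34 and 5.23 in M2629, M2630 and M2631. The groups overlapped, with 5.39 ± 0.255 (SD, n = 3) in miRNA-26b-/- and 5.38 ± 0.168 (SD, n = 3) in miRNA-26b+/+ libraries, a difference of 0.0160 paralog numbers that is smaller than either SD. Over the 23 HOX genes that share no exon base with another gene the difference was 0.251. The HOX profiles correlated between libraries with Pearson's r of 0.819 to 0.930 over the 39 genes on log2(level + 1), a description over genes that share a library. The 39 include the 10 genes without a count in any library, which sit at the same value in every library.

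Groups 9 to 13 held 12%, 10.3% and 10.1% of the HOX level in miRNA-26b-/- aortas, against 12.6%, 11.4% and 7.90% in miRNA-26b+/+ aortas. Their share therefore overlapped between genotypes, and M2631 had the lowest. Groups 1 to 3 held 26.0%, 27.9% and 34.4% against 25.6%, 25.2% and 28.7%. M2628 stood above the other 5 libraries in that anterior share and had the lowest paralog centre. HoxA held 39.6% to 51.6% of the HOX level, HoxB 32.6% to 43.4%, HoxC 7.68% to 11.6% and HoxD 2.91% to 7.77%.

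The summed HOX level was 104.3, 77.7 and 63.2 CPM per kb in M2626, M2627 and M2628 and 72.1, 71.8 and 67.9 in M2629, M2630 and M2631. The miRNA-26b-/- libraries again held the highest and the lowest value, with an SD of 20.8 against 2.33 in the miRNA-26b+/+ libraries (n = 3 each). Of the 28 HOX genes that passed the filter described next, 11 were highest in M2626 and 12 were lowest in M2628. These are the 2 miRNA-26b-/- libraries that also lay far apart in endothelial markers, at 518 and 1793 CPM, and in adventitial fibroblast markers, at 2166 and 4018 CPM. M2627, with a low endothelial sum of 528 CPM too, had a HOX sum closer to the miRNA-26b+/+ libraries, and the part of tissue composition in the HOX level was not tested.

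**Figure D2:**
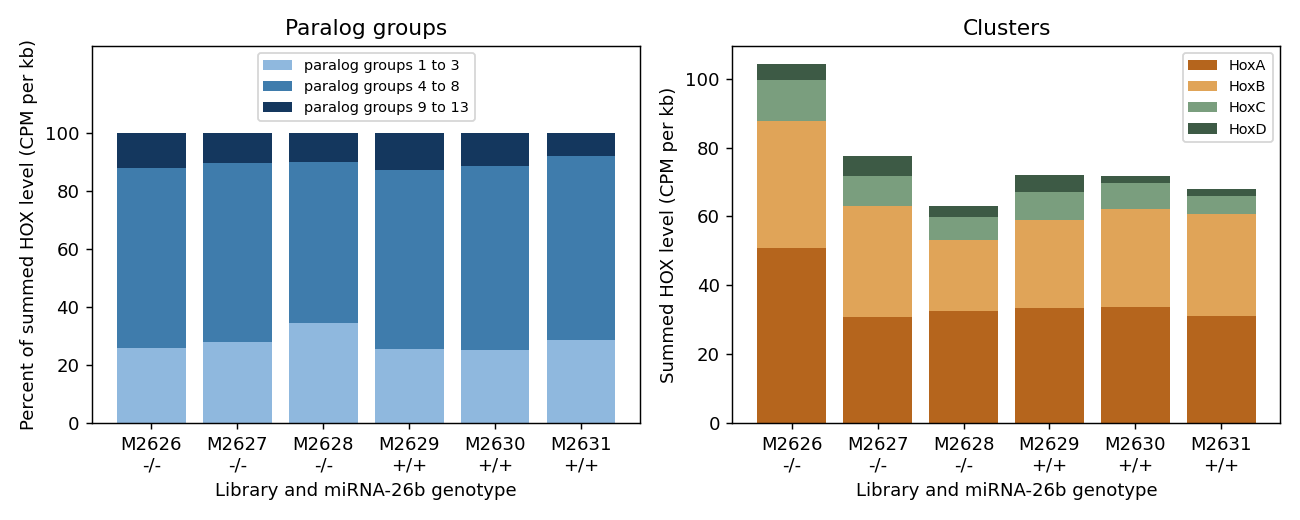
Left, percent of the summed HOX level (CPM per kb) held by paralog groups 1 to 3, 4 to 8 and 9 to 13 in each library; right, the summed level in CPM per kb, split by cluster, with bars from 0. The shares of groups 9 to 13 overlap between genotypes (10.1% to 12% and 7.90% to 12.6%), while the sums run from 63.2 to 104.3 within the miRNA-26b-/- libraries.

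Whether loss of miRNA-26b changed single HOX genes was tested with edgeR on all genes with more than 1 CPM in at least 2 libraries. Of the 39 HOX genes 28 passed this filter; *Hoxa6*, with 0, 24 and 0 counts in M2626, M2627 and M2628 and 11, 62 and 21 in M2629, M2630 and M2631, did not, nor did the 10 genes without counts. *Hoxd3* and *Hoxd10* had an unadjusted p under 0.05, 7.14% of the 28 genes, against 6.47% of the 16017 genes tested. No HOX gene had an adjusted p under 0.05, by edgeR, DESeq2 or limma, against 0.00624% of all genes, which is 1 gene. The groups did not overlap for *Hoxb2*, *Hoxc8*, *Hoxd3* and *Hoxd10*, 14.3% of the 28 genes, against 11.7% of all genes tested. All these shares lay near the background over all genes. *Hoxd3* and *Hoxd10* passed the filter on low counts only through the genotype in which they are high.

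Of the 28 fold changes 17 were above and 11 below 0, with a median log2 fold change of 0.24, against 0.01 over all genes tested. Without M2626 the HOX median was -0.07. HOX genes were also more variable within a genotype than the genes tested as a whole, with a median within-group SD of 0.575 on the log2 scale against 0.398, at a lower median abundance of 5.57 CPM against 17.0. A library at 0 was present for 7 of 28 HOX genes, 25%, against 14.3% of all genes tested. The variance of the scaled counts within a genotype, averaged over both genotypes, was a median of 30.5 times the mean over the 6 libraries. Counting error alone gives a value near 1, and the values ran from 0.800 for *Hoxb2* to 163.8 for *Hoxa7*.

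**Figure D3:**
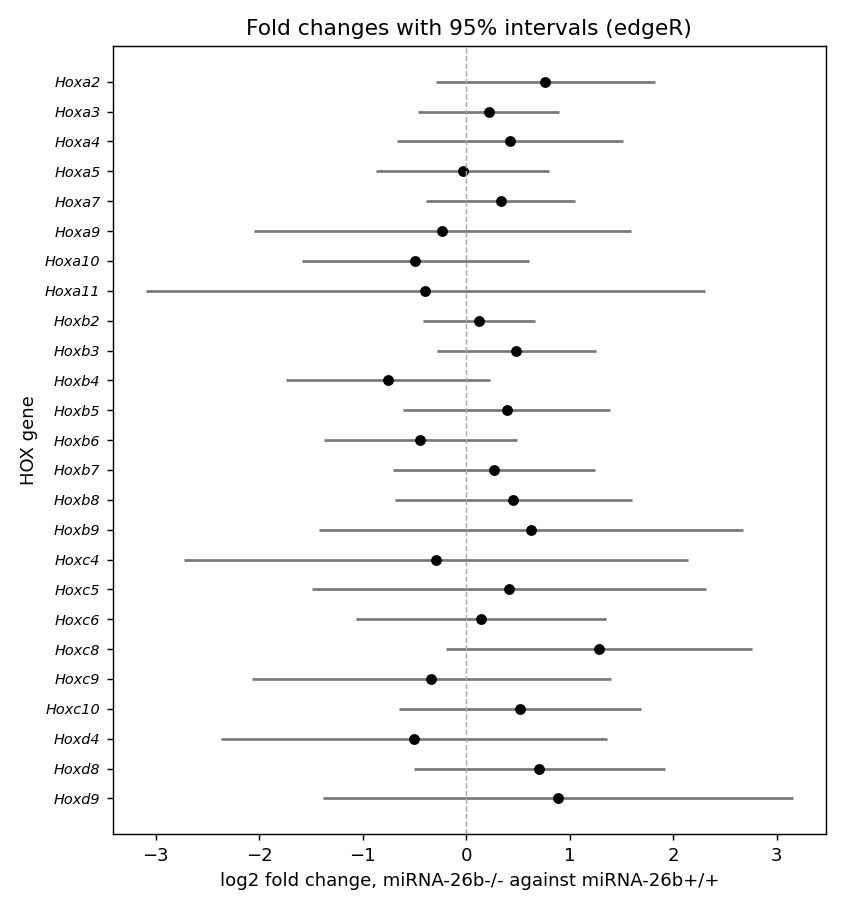
log2 fold change of miRNA-26b-/- against miRNA-26b+/+ libraries (horizontal axis) for 25 of the 28 tested HOX genes, with points for edgeR's estimate and lines for 95% intervals. *Hoxd3* and *Hoxd10*, which are at 0 counts throughout a genotype, are left out; every interval shown spans 0.

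*Hoxd3*, which in endothelium is known to drive the invasive, angiogenic state, had 0 counts in M2626, M2627 and M2628 and 21, 42 and 63 counts in M2629, M2630 and M2631. The genotypes did not overlap. The miRNA-26b+/+ mean was 1.42 ± 0.679 CPM (SD, n = 3). Pooled over the 3 libraries of a genotype, the miRNA-26b+/+ level was 1.42 CPM. For counting error only, with 3 counts over the group as the floor, the miRNA-26b-/- level was at least 41.1-fold lower. The variance of the scaled *Hoxd3* counts within a genotype was 9.55 times the mean, so this bound leaves out the spread between mice. With edgeR the unadjusted p was 0.0180 and the adjusted p 0.736. An exact two-sided permutation test gave p = 0.1, the smallest that 3 against 3 allows. Any gene whose groups do not overlap gets this value, so it adds nothing to the missing overlap. Without M2631 the bound was 31.5-fold. Only M2630 and M2631 were above 1 CPM, so *Hoxd3* met the filter through the miRNA-26b+/+ libraries alone, and it was not tested when either was left out. With no filter on CPM the unadjusted p was 0.0207.

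The *Hoxd3* gene (chr2:74711927-74748442) shares 62.8% of its exon bases with other genes, 2225 of them with *Gm28230*, 388 with *Hoxd4* and 347 with the antisense gene *Hoxd3os1*. Reads there were counted for each gene without regard to strand. In M2631 the same number, 63, was recorded for *Hoxd3*, *Hoxd4* and *Hoxd3os1*, and in M2629 both *Hoxd3* and *Hoxd3os1* had 21. In the miRNA-26b-/- libraries *Hoxd4*, a gene of the hindbrain and neck, had 35, 25 and 38 counts, exactly those of *Gm28230*. In M2630 *Gm28230* had 61 counts, the sum of 42 for *Hoxd3* and 19 for *Hoxd4*. The counts of *Hoxd3*, *Hoxd4* and their neighbours thus cannot be assigned to 1 of these genes, and *Hoxd4* itself overlapped between genotypes, with 59, 19 and 63 counts in M2629, M2630 and M2631.

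*Hoxd10*, a posterior gene of the lumbar level that is known to hold endothelium in the resting state, had 30, 60 and 3 counts in M2626, M2627 and M2628 and 0 in the other 3 libraries. The genotypes did not overlap, but M2628 was at the floor of 3 counts. The mean over the miRNA-26b-/- libraries was 1.02 ± 0.855 CPM (SD, n = 3). Their pooled level was 1.07 CPM. For counting error only, this was at least 31.7-fold higher than the floor of 3 counts over the pooled miRNA-26b+/+ libraries. The variance of the scaled *Hoxd10* counts within a genotype was 20.9 times the mean, so this bound too leaves out the spread between mice. With edgeR the unadjusted p was 0.0399 and the adjusted p 0.749 (exact permutation p = 0.1). Without M2627 the bound was 18.2-fold. Only M2626 and M2627 were above 1 CPM, so *Hoxd10* met the filter through the miRNA-26b-/- libraries alone, and it was not tested when either was left out or with the filterByExpr filter. With no filter on CPM edgeR's unadjusted p was 0.0424. Its exons share 5.70% of their bases with *Gm28309*, which had 60 counts in M2627, as many as *Hoxd10*, and 0 elsewhere. *Hoxd9*, the gene beside it, had 71, 37 and 24 counts against 43, 29 and 0, and the genotypes overlapped.

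**Figure D4:**
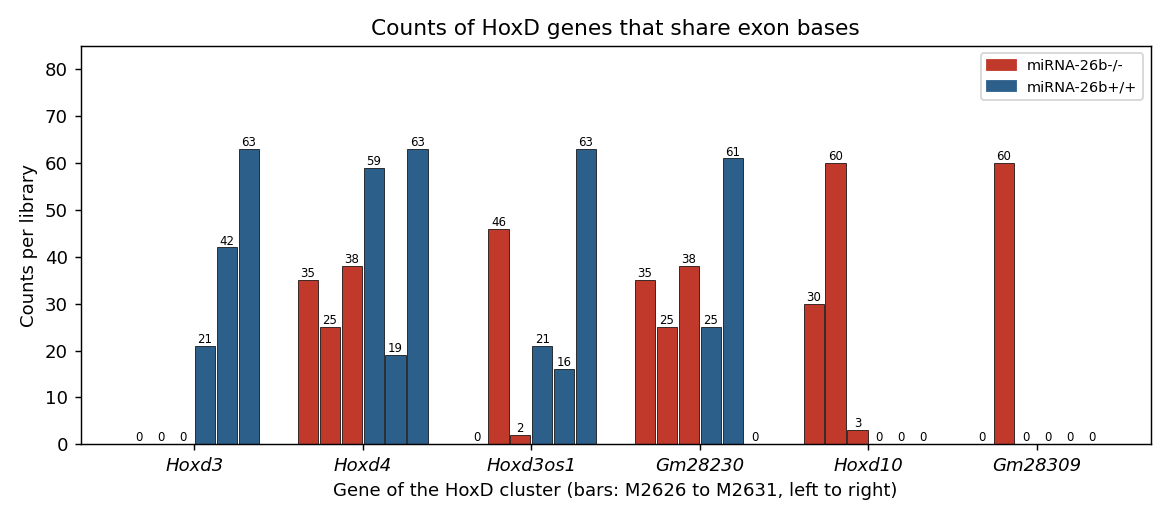
Counts per library (vertical axis, linear from 0) of *Hoxd3*, *Hoxd4* and *Hoxd10* and of 3 genes that share exon bases with them; the 6 bars of a gene are M2626, M2627 and M2628 (red, miRNA-26b-/-) and M2629, M2630 and M2631 (blue, miRNA-26b+/+), each with its count above it. *Hoxd3* is at 0 in all red bars and *Hoxd10* in all blue bars, and equal counts recur among genes that overlap.

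*Hoxc8*, a thoracic gene that shares no exon base with another gene, had 3.42, 5.43 and 3.15 CPM in M2626, M2627 and M2628 and 1.89, 2.12 and 1.04 CPM in M2629, M2630 and M2631. Every miRNA-26b-/- library was above every miRNA-26b+/+ library, with means of 4.0 ± 1.24 and 1.68 ± 0.569 CPM (SD, n = 3 each). The log2 fold change was 1.28 with a 95% interval of -0.20 to 2.76, and edgeR's unadjusted p was 0.0846 (exact permutation p = 0.1). *Hoxb2* had 21.7, 22.1 and 23.3 CPM in miRNA-26b-/- and 20.8, 20.6 and 19.6 CPM in miRNA-26b+/+ libraries. They did not overlap either, but the log2 fold change was only 0.12 (95% interval -0.42 to 0.67). *Hoxb2* shares 27.3% of its exon bases with the antisense gene *Hoxb3os*.

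For the abundant central and anterior genes the intervals of the log2 fold change spanned 0. *Hoxa7* had 0.33 (-0.39 to 1.05), *Hoxa5* -0.04 (-0.87 to 0.80), *Hoxa3* 0.22 (-0.47 to 0.90) and *Hoxb3* 0.49 (-0.28 to 1.25). *Hoxa2* had 11.8, 4.86 and 15.8 CPM in miRNA-26b-/- libraries against 4.80, 7.54 and 6.13 CPM, so that M2627 fell among the miRNA-26b+/+ libraries; its log2 fold change was 0.77 (-0.29 to 1.82). *Hoxb4*, a gene of the cervical level, had 7.47, 5.07 and 5.09 CPM against 6.02, 12 and 11.2 CPM, with M2629 among the miRNA-26b-/- libraries and a log2 fold change of -0.76 (-1.74 to 0.23). Intervals of this width do not show that the levels were alike.

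Leaving out M2628 moved the count of HOX genes with an unadjusted p under 0.05 from 2 to 4, *Hoxa7*, *Hoxb3*, *Hoxd3* and *Hoxd10*, against 10.8% of all genes tested in that fit. The log2 fold changes of *Hoxa7* and *Hoxb3* were then 0.64 and 0.79. *Hoxb3*, which is active in the hindbrain and neck, had 26.1, 23 and 10.1 CPM in M2626, M2627 and M2628 and 11.9, 14.4 and 15.6 CPM in the miRNA-26b+/+ libraries, and shares 52.9% of its exon bases with *Hoxb3os*. M2628 was thus the lowest of the 6 libraries for both genes. Without M2630 or without M2631 the count was 0, but *Hoxd3* no longer met the filter there and was not tested.

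Among the 5 HOX genes with a miRNA-26b match, the log2 fold changes were -0.04 for *Hoxa5*, -0.23 for *Hoxa9*, -0.29 for *Hoxc4* and 0.71 for *Hoxd8*, while *Hoxd3* was lower in miRNA-26b-/- libraries as given above. *Hoxd8*, with the highest of these, had 153, 391 and 177 counts in M2626, M2627 and M2628 and 290, 87 and 67 in M2629, M2630 and M2631. M2629 lay among the miRNA-26b-/- libraries, and the 95% interval was -0.50 to 1.92. *Hoxc4* was at 0 or 2 counts in M2628 and M2631 and at 41 to 66 in the others, and *Hoxa9* ran from 8 to 130 counts within the miRNA-26b-/- libraries. Of the 5 only *Hoxd3* had an unadjusted p under 0.05 by edgeR, against 6.47% of all genes tested, and its adjusted p was 0.736. It met the filter through the miRNA-26b+/+ libraries alone, and its counts cannot be assigned to it alone. The intervals of the other genes with a match spanned 0.

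Between the outermost HOX genes of the clusters lay 46 other annotated genes, of which 21 had at least 10 counts in a library and 15 passed the filter. *Hoxb3os*, antisense to *Hoxb3*, had the most counts, with 1176, 1262 and 799 in M2626, M2627 and M2628 and 908, 851 and 922 in M2629, M2630 and M2631, and the genotypes overlapped. *Hotairm1*, a noncoding RNA that is known for a role in opening HoxA, had 134, 267 and 110 counts against 65, 87 and 153, with overlapping genotypes. *Gm27868*, a short RNA that lies wholly within an exon of *Hotairm1* with its 102 bases, was the only 1 of the 15 with an unadjusted p under 0.05, against 6.47% of all genes tested (38, 112 and 52 counts against 24, 17 and 0, edgeR's unadjusted p = 0.0429, adjusted p = 0.754). It was above 1 CPM in miRNA-26b-/- libraries only and so met the filter through them. *Hotair*, the HoxC noncoding RNA, and 6 microRNA hairpins of the clusters, *Mir10a*, *Mir10b*, *Mir196a-1*, *Mir196a-2*, *Mir196b* and *Mir615*, had no count, and mature microRNAs were not measured.

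The HoxA noncoding gene *Hoxaas2* had 388, 416 and 13 counts in M2626, M2627 and M2628 and 332, 109 and 198 in M2629, M2630 and M2631. *Hoxaas3* had 390, 368 and 194 counts against 192, 60 and 310. M2628 was lowest for *Hoxaas2*, as for *Hoxa7* and *Hoxa3*. *Hoxaas3* shares 586 exon bases with *Hoxa7* and 297 with *Hoxa3*, and *Hoxaas2* shares 503 with *Hoxa3*.

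The partners and regulators of the HOX genes were read from lists. Of 8 tested TALE cofactors, which bind DNA beside HOX proteins, none had an unadjusted p under 0.05, 5 were above and 3 below 0, and *Pbx2* had a mean level of 7.99 CPM per kb. Of 13 tested genes of retinoic acid metabolism and its receptors none passed, with a median log2 fold change of 0.16, and *Dhrs3*, which turns retinal back to retinol, had 43.1 CPM per kb. Of 15 Polycomb genes (median 0.07, led by *Phc2*) and 8 Trithorax and H3K27 demethylase genes (median -0.06, led by *Wdr5*) none passed, nor did any of 15 genes that flank the clusters (median 0.01). These medians lie beside 0.01 over all genes tested.

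Of the early regulators of HOX clusters 3 were tested and *Egr2*, the hindbrain activator of *Hoxa2* and *Hoxb2* and also a Schwann cell gene, had 2.33, 1.35 and 5.63 CPM in M2626, M2627 and M2628 and 5.53, 12.5 and 5.94 CPM in M2629, M2630 and M2631. M2628 lay among the miRNA-26b+/+ libraries, and the log2 fold change was -1.40 (edgeR's unadjusted p = 0.0393, adjusted p = 0.748). *Egr2* was the only 1 of the 3 with an unadjusted p under 0.05, against 6.47% of all genes tested. *Cdx1*, *Cdx2* and *Cdx4*, which switch on central HOX genes in the embryo, had no count. Of 16 tested transcription factors of the outflow tract and pharyngeal arches 11 were below 0, with a median of -0.20 and *Foxc2*, *Foxc1* and *Gata6* as the most abundant. *Tbx3* had 21, 2 and 0 counts against 60, 83 and 52, without overlap, and an unadjusted p = 0.0280 by edgeR with an adjusted p = 0.736. It was the only 1 of the 16 with such a p, against 6.47% of all genes tested, and met the filter through the miRNA-26b+/+ libraries alone.

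Other tissue around the vessel differed between the libraries and stands beside these values. Of 6 Schwann cell markers all 6 were higher in miRNA-26b-/- libraries at an unadjusted p under 0.05 by edgeR, against 6.47% of all genes tested in either direction, with summed levels of 354 to 493 CPM against 243 to 300 CPM. All 8 skeletal muscle markers were higher, 7 of them at such a p. Their sums were 8.49 to 97.9 CPM against 3.18 to 11.1 CPM. *Myh4*, *Myh1* and *Pvalb* were at 0 in M2628 and in every miRNA-26b+/+ library, so that they met the filter through M2626 and M2627 alone. *Mylpf* and *Tnnt3* were above 1 CPM in miRNA-26b-/- libraries only and so met it through them. *Tnni2* was above 1 CPM in M2626, M2627 and M2631 and so needed the miRNA-26b-/- libraries to meet it. All 6 tested sympathetic neuron markers were higher, 3 of them at such a p, with 338 CPM in M2627 against 16.8 to 57.2 CPM in the others. *Rag1*, a thymocyte gene, had 0 counts in M2626, M2627 and M2628 and 20, 139 and 39 in M2629, M2630 and M2631. It met the filter through M2630 and M2631 alone. *Ptcra*, of the same thymus list, went the other way with 39 counts in M2626 and 0 elsewhere, and *Foxn1* and *Cd3e* were at 0 throughout. *Tek* was lower (edgeR's unadjusted p = 0.0378), the only 1 of 8 tested endothelial markers with such a p, against 6.47% of all genes tested. The summed levels of brown fat (148 to 479 CPM), white fat (160 to 653 CPM) and cardiac muscle (9.14 to 321 CPM) markers overlapped between genotypes. So did those of leukocyte (49.2 to 135 CPM), erythroid (58.9 to 628 CPM) and airway and oesophagus (0.896 to 7.11 CPM) markers. No marker passed adjustment over all genes, and the part of these tissues in the counts of *Hoxd3*, *Hoxd10*, *Hoxc8* and *Tbx3* was not tested.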

How the data were processed

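Total RNA was isolated from 3 miRNA-26b-/- and 3 miRNA-26b+/+ aortas. From each, 1 library was made with a TruSeq RNA kit and sequenced. The authors aligned reads with STAR to GRCm38 (mm10 in the submitters' processing notes) and deposited raw counts per gene from featureCounts 1.6.4, summed over the exons of a gene name, ignoring strand; a read over several genes was given to all of them, so that overlapping genes share reads. A second deposited table, of CPM values with the authors' own comparison (log2 fold changes and p-values), was not used. Annotation was GENCODE release M21, as in the count table.

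A gene was tested if it had 2 counts or more in all and exceeded 1 CPM in 2 libraries or more. The test was that of edgeR 4.0.16 in R 4.3.3 (TMM, quasi-likelihood, no covariate, Benjamini-Hochberg over 16017 genes). CPM used total counts without TMM. Single genes whose groups did not overlap were also given an exact permutation test. The p-values and intervals of edgeR set a difference against the spread between these mice. That spread was estimated for each gene with help from all genes tested, so it is not the gene's own spread alone. For seed matches, the longest 3′ UTR of each gene was used. The named genes are all HOX genes, genes inside the clusters with at least 10 counts, and, from the lists, members with an unadjusted p under 0.05 and the most abundant. The members and lists were chosen with earlier results of these data known. Alternatives were DESeq2 1.42.0, limma 3.58.1 (voom), edgeR's likelihood ratio and earlier quasi-likelihood tests, other scalings and filters, and leaving out each library. The fit was tested on simulated data. The values of some of the genes read are not given.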

Additional observations from a re-analysis of the deposited data

How the results depend on the processing

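No paired analysis was possible because the labels give no replicate numbers shared between genotypes. The count of 2 HOX genes with an unadjusted p under 0.05 became 1 with limma voom and 1 with filterByExpr, *Hoxd3* in each, and ranged from 0 to 4 when 1 library was left out: 4 without M2628, 0 without M2630 and 0 without M2631. Over all genes the 1036 ranged from 686 (without M2631) to 1692 (without M2628). The HOX median log2 fold change ranged from -0.0713 (without M2626) to 0.45 (without M2628). No setting gave a HOX gene an adjusted p under 0.05, the smallest being 0.0832. The difference in paralog centre was 0.251 over HOX genes that share no exonic base. With limma voom the log2 fold changes of *Hoxb9* (-0.82), *Hoxc5* (-1.51) and *Hoxc6* (-0.11) turned negative. Leaving out 1 library turned the sign of 10 of the HOX genes whose values are given, with ranges of -0.0803 to 0.51 for *Hoxa3*, -0.33 to 0.26 for *Hoxa5*, -0.10 to 0.64 for *Hoxa7*, -1.25 to 0.40 for *Hoxa9*, -0.64 to 0.30 for *Hoxa11*, -0.11 to 0.45 for *Hoxb7*, -0.0713 to 0.78 for *Hoxb8*, -0.88 to 0.52 for *Hoxc4*, -0.68 to 0.98 for *Hoxc5* and -0.24 to 0.60 for *Hoxc6*. Without M2627 *Hoxa2*, and without M2629 *Hoxd8*, had an unadjusted p under 0.05 by edgeR. Part of the fall in the count of HOX genes lies in the filter: *Hoxd3* left the fit without M2630 and without M2631, and *Hoxd10* with filterByExpr, without M2626 and without M2627. The cause of the other changes was not tested. Depth limits the genes with few reads, of which *Hoxd3* and *Hoxd10* have at most 63 and 60 counts in a library.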
